A study of Oryza sativa with 12 samples.

Results

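The comparison set heat-stressed panicles of the rice cultivar Nagina22 (N22), which its submitters call heat tolerant, against heat-stressed panicles of IR64, which they call susceptible. It took in 6 of the series' 12 arrays, 3 of N22 and 3 of IR64, chosen by their titles, and every probe set of the Affymetrix rice array except control and reporter probe sets, which left 57194 of 57381 probe sets. The effect throughout is the difference of the group means of the deposited log2 values, N22 minus IR64, so a positive value means higher in N22. Plants of both cultivars were sown in one facility at Karnal, India, that stood open until flowering and was then held 5 °C above ambient, day and night, for 8 days, after which panicles of the main tillers were frozen. The other 6 arrays, 3 of N22 and 3 of IR64, came from panicles of plants in an open field beside the facility and served here as the unheated cultivar comparison. Neither cultivar carried a transgene or mutation named in the labels. Heat and site changed together between the sets of arrays, so they cannot be told apart in any comparison of heated with unheated panicles. No label says how many plants a sample held or whether the arrays of a group came from separate plants, so p-values measure the spread between these arrays, which may be technical.

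Heat at flowering is known to damage pollen and to shorten the filling of the rice grain. Plants answer it through heat stress transcription factors (HSFs), which switch on genes for small heat shock proteins (sHSPs), chaperones that hold unfolding proteins in a soluble state until HSP101 and other chaperones refold them. A panicle changes fast at this stage, because floral organs give way after fertilisation to a growing caryopsis whose endosperm fills with glutelins, prolamins and starch.

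Marker genes were read first, on the log2 scale and against a background level of 4.20, the highest value of any reporter probe set, which matches no rice gene. Of 12 genes for panicle and spikelet identity, 11 lay above that level on all arrays of each cultivar in heat, and their mean per array ranged from 7.43 to 7.65 in N22 and from 8.98 to 9.06 in IR64. DL, a carpel identity gene, lay at background on all 12 arrays of the series. The endosperm and seed markers separated the cultivars: all 7 tested lay above background in N22, with array means of 13.05 to 13.18, against 1 of 7 in IR64, with array means of 3.47 to 3.54. GLUA-1, GLUA-2, GLUB-5, PROLM25, RA14 and RA17 were all at background in IR64. The 1 marker seen in IR64, GLB, is the name of a PII-type nitrogen regulator and not of a storage protein. The same held without heat, where these markers averaged 13.35 to 13.45 per array in N22 and 3.71 to 3.87 in IR64. Green tissue markers averaged 13.06 to 13.18 in N22 and 13.78 to 13.91 in IR64 in heat, and 10.44 to 10.52 in N22 and 13.81 to 13.85 in IR64 without it. Meiosis markers averaged 3.93 to 4.10 in N22 and 3.60 to 3.79 in IR64 in heat. Of 6 tested, 3 lay above background on all heat arrays of each cultivar, while HEI10, MER3 and SDS lay at background throughout. Tapetum markers averaged 5.14 to 5.34 in N22 and 4.54 to 4.73 in IR64. Of 5 tested, 3 lay above background on all heat arrays in N22 and 2 in IR64. CYP703A3 and PTC1 were at background in both cultivars, and BHLH141 in IR64. Seed storage genes thus gave signal above background in N22 panicles and not in IR64 panicles, and the stage of the panicles at sampling is not given in the labels. Cultivar and panicle stage cannot be told apart in what follows, and neither can fewer cells of a type and less RNA per cell.

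Array values of the same group correlated at 0.996 to 0.997 for N22 and 0.995 to 0.996 for IR64 in heat, and at 0.853 to 0.863 between the cultivars. Between 33.2% and 34.4% of probe sets exceeded the background level per heat array. The GAPDH 3′ minus 5′ signal, which grows as RNA is degraded, was 8.81 ± 0.17 in N22 and 7.93 ± 0.16 in IR64 on the log2 scale (SD, n = 3 each), and an exact two-sided permutation test gave p = 0.1, the smallest that 3 against 3 allows. In unheated panicles it was 8.59 ± 0.14 in N22 and 4.79 ± 0.18 in IR64. In heat the matching signals of other genes ran the other way. Ubiquitin 3′ minus 5′ was 2.04 ± 0.05 in N22 and 2.15 ± 0.01 in IR64. Cyclophilin 3′ minus middle was 2.09 ± 0.27 in N22 and 2.40 ± 0.34 in IR64 (SD, n = 3 each). GAPDH 3′ minus middle went with 3′ minus 5′, at 4.72 ± 0.07 in N22 and 4.51 ± 0.05 in IR64. In unheated panicles all these signals were lower in IR64 than in N22. There GAPDH 3′ minus middle was 4.95 ± 0.06 in N22 and 2.07 ± 0.13 in IR64. Unheated ubiquitin was 2.21 ± 0.07 in N22 and 1.45 ± 0.03 in IR64, and cyclophilin 2.11 ± 0.36 and 1.57 ± 0.19 (SD, n = 3 each). Signals of 25S ribosomal RNA averaged 13.74 ± 0.17 in N22 and 9.77 ± 0.08 in IR64, and the labelling spike-ins 9.68 ± 0.27 in N22 and 10.71 ± 0.28 in IR64 (SD, n = 3 each). What part these differences have in the comparison was not tested.

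Most tested probe sets differed between the cultivars in heat. Of 29801 probe sets with a value above the table's median on at least 3 of 12 arrays, 18795 (63.1%) passed limma's moderated test at a Benjamini-Hochberg adjusted p below 0.05, 8820 (29.6%) higher and 9975 (33.5%) lower in N22. At least 2-fold differences were found for 4677 (15.7%) higher and 4605 (15.5%) lower probe sets. Differences of at least 8-fold were less even, with 1161 higher and 445 lower in N22. Among the called probe sets, 1546 lay at background on all 6 arrays, and for these no fold is given. All 3 N22 arrays lay above all 3 IR64 arrays for 9594 probe sets (32.2%) and below them for 10668 (35.8%). Taking each gene at its brightest probe set gave 16069 genes, of which 34.0% were called higher and 40.4% lower in N22, with a median log2 difference of -0.05. Each gene list below is to be read against these shares.

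The cultivar difference in heat largely repeated the one already present without heat, measured on other arrays. In open-field panicles 21047 probe sets (70.6%) differed between N22 and IR64, 35.1% higher and 35.6% lower in N22. By the rule of a call and at least 2-fold, 5695 of all 29801 tested probe sets were higher and 6728 lower in N22 in control. Of the probe sets called and at least 2-fold higher in N22 in heat, 70.5% were so in control too, which is 57.9% of the control list. Of those at least 2-fold lower in heat, 72.7% were so in control, which is 49.8% of the control list. Opposite 2-fold differences were few, 160 probe sets higher in N22 in heat and lower in control and 22 the other way. Without the 2-fold rule, 860 (9.75%) of the probe sets called higher in heat were called lower in control. Of those called lower in heat, 997 (9.99%) were called higher in control. Across probe sets the differences in heat and in control correlated at r = 0.79, a description over probe sets that are not independent replicates. Over all tested probe sets the N22 minus IR64 differences had an SD of 1.55 in heat and 1.89 in control on the log2 scale. The difference of the cultivar differences, heat minus control, was called for 8744 probe sets (29.3%) in the positive and 7764 (26.1%) in the negative direction. This split depended on scaling, since subtracting each array's median brought the share of positive calls to 32.3% from 53.0% and the median of all probe sets by -0.30 on the log2 scale, whereas the share of higher calls in heat was 46.9% as deposited and 40.9% after centring.

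**Figure D1:**
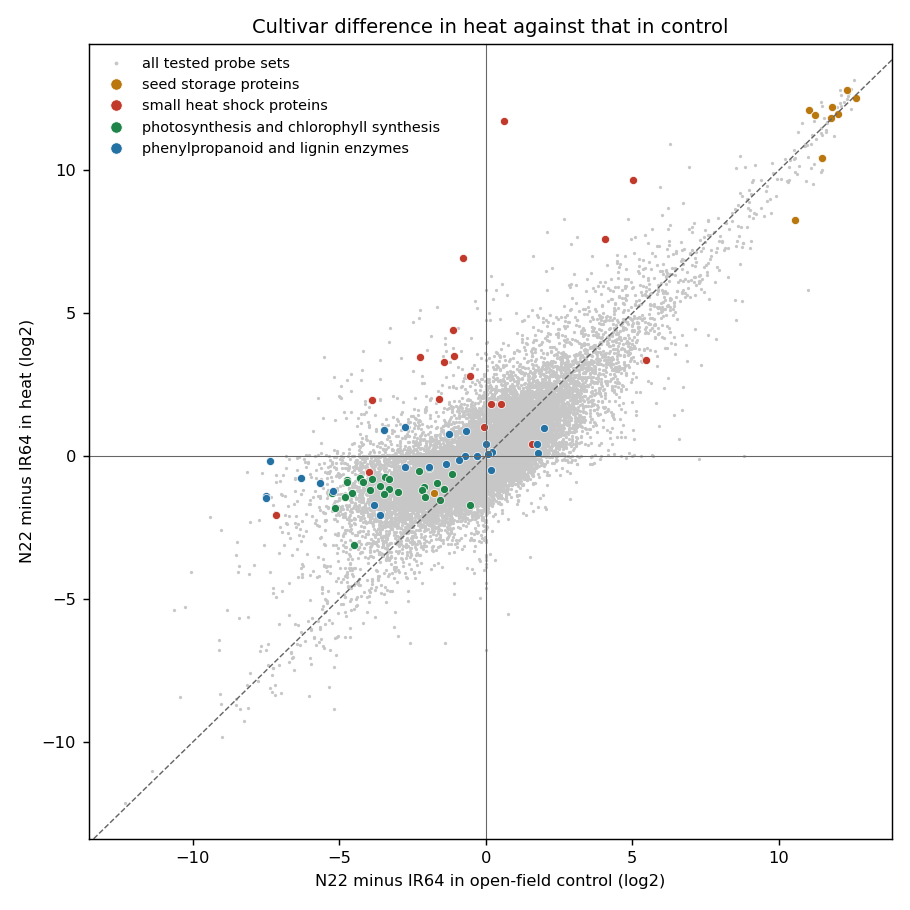
Each grey point is 1 tested probe set, with the N22 minus IR64 difference in open-field control on the horizontal axis and that in heat on the vertical axis, both on the log2 scale; the dashed line marks equal differences. Coloured points are the genes of 4 lists at their brightest probe set: seed storage genes lie near the line at the upper right, except GLB, which lies below 0 on both axes, most sHSP genes lie above the line, and most photosynthesis and lignin genes lie left of 0 with a smaller difference in heat than in control.

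Seed genes made up the far end of the comparison. Of 10 tested genes on the storage protein list, 9 were higher and 1 lower in N22, and the lower one was GLB; of all genes 34.0% were called higher and 40.4% lower. The median log2 difference was 11.96, or 10.20 with values below background raised to it. GLUA-3, a glutelin, read 15.10, 15.19 and 15.28 in N22 and 2.41, 2.36 and 2.36 in IR64. Its groups did not come near each other, and N22 was at least 2031-fold higher, a bound taken against the background level because all 3 IR64 arrays lay beneath it (adjusted p = 3.6e-15). GluC, another glutelin, read 14.51, 14.54 and 14.51 in N22 and 2.30, 2.39 and 2.30 in IR64, at least 1275-fold higher in N22. PROLM25, a prolamin, read 14.23, 14.37 and 14.29 in N22 and 2.32, 2.33 and 2.32 in IR64, at least 1091-fold higher. The bounds for the glutelins GLUA-1, GLUA-2 and GLUB-5 were 1022, 1642 and 1279, and for the seed allergen genes RA14, RA5 and RA17 they were 1565, 609 and 81.4. In every one of these 9 genes the 3 N22 arrays were high and the 3 IR64 arrays at background. Unheated panicles held the same contrast, with GLUA-3 at 14.83 ± 0.05 in N22 and 2.51 ± 0.13 in IR64 (SD, n = 3 each). Probe sets of glutelins and of the RA family can match several family members, so their values are for the family more than for a single gene.

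Starch genes of the endosperm followed. On the starch list 9 of 15 tested genes were higher and 4 lower in N22, with a median log2 difference of 0.72. GBSS1, the granule-bound synthase that makes amylose, read 15.15, 15.22 and 15.17 in N22 and 3.54, 6.31 and 4.26 in IR64; its N22 arrays were tightly grouped and its IR64 arrays spread across the background level, with 2 of 3 arrays above it. The log2 difference was 10.47 ± 0.78 (SE). ALK, the starch synthase IIa gene that sets gelatinisation temperature, read 12.09, 12.05 and 11.65 in N22 and 3.14, 3.02 and 2.83 in IR64, at least 212-fold higher in N22. SS1, a soluble starch synthase, differed by 5.64 ± 0.13, AGPS2, a small subunit of ADP-glucose pyrophosphorylase, by 4.13 ± 0.08 and Q-enzyme, a branching enzyme, by 4.02 ± 0.12 on the log2 scale (SE, adjusted p 8.3e-11, 2.8e-11 and 6.3e-10). The 4 lower genes were GWD3, D-enzyme, SS2 and FLO6, at -1.83, -1.22, -0.56 and -0.35. In control the list split into 10 higher and 5 lower, where 39.3% of all genes were called higher and 42.1% lower.

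Genes that bring sucrose to the grain were split, 11 higher and 11 lower of 30 tested. SUS3, a sucrose synthase, read 12.49, 12.66 and 12.49 in N22 and 5.09, 5.28 and 5.84 in IR64, a 141-fold difference with no overlap. SUS4 was 5.36-fold and SWEET11, a sucrose exporter of the caryopsis, 4.79-fold higher in N22, with SWEET11 at 13.43, 13.45 and 13.45 in N22 and 11.20, 11.15 and 11.20 in IR64. In control SWEET11 differed by 0.30, and the difference of the differences was 1.96 ± 0.06 (SE).

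Genes of seed maturation and abscisic acid response were mostly higher in N22 too. Of 11 tested, 8 were higher and 2 lower in N22 (median log2 2.21). EM, a late embryogenesis abundant protein gene, read 11.18, 11.38 and 11.27 in N22 and 3.10, 3.35 and 3.35 in IR64, at least 135-fold higher. VP1, the transcription factor that directs seed maturation, read 8.75, 9.21 and 8.98 in N22 and 3.25, 3.23 and 3.23 in IR64, at least 27.4-fold higher. The bounds were 29.4 for rab25, a dehydrin, and 5.73 for OsPM19L1. For these 4 genes the N22 arrays lay above and the IR64 arrays below the background level. TIP3, the tonoplast aquaporin of seed storage vacuoles, read 14.75, 14.78 and 14.78 in N22 and 3.22, 2.98 and 2.83 in IR64, at least 1517-fold higher in N22, and TIP3-2 was at least 26.3-fold higher. Dhn1, a dehydrin, and TRAB1, a bZIP factor, were the lower members, at -1.79 and -0.43. RAB21, another dehydrin, was higher by 1.54 ± 0.17 in heat and by 4.76 in control, a difference of -3.23 ± 0.23 (SE, adjusted p = 1.4e-06). No member had a positive called difference of the differences and 7 of 11 had a negative one, beside 35.5% positive and 30.2% negative over all genes. These lists sit beside the endosperm markers given above, and how far the content of grain tissue in the samples accounts for them was not tested.

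**Figure D2:**
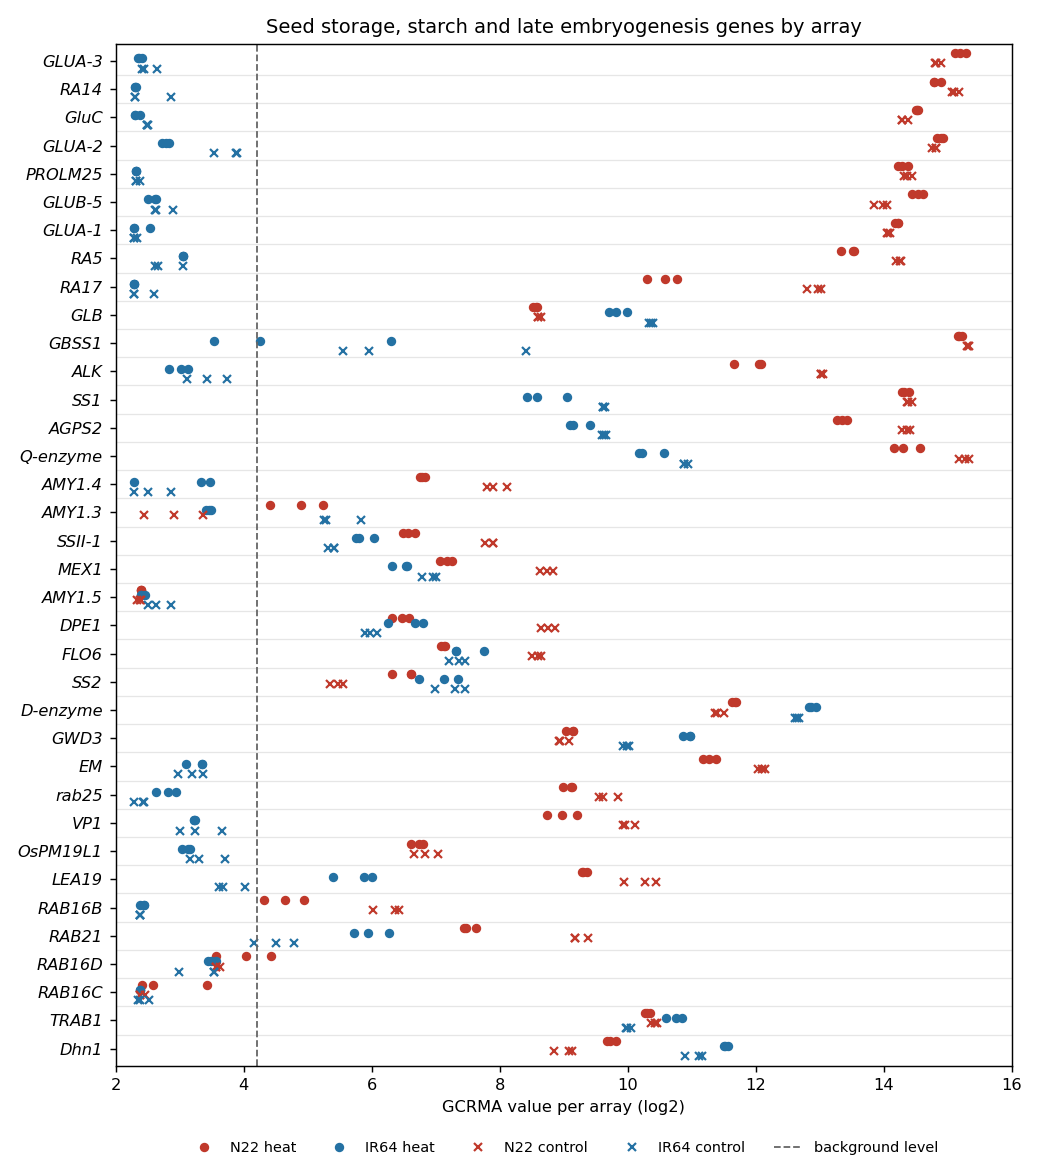
Each row is 1 gene of the seed storage list (top, GLUA-3 to GLB), the starch list (middle, GBSS1 to GWD3) and the late embryogenesis list (bottom, EM to Dhn1), with its GCRMA log2 value on each of 3 arrays per group. Dots are heat and crosses open-field control, red N22 and blue IR64; the dashed line is the background level of 4.20. For the 9 storage genes from GLUA-3 to RA17 all red marks lie above 10 and all blue marks left of the dashed line.

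The sHSP genes were higher in heated N22 than in heated IR64 almost throughout. Of 18 tested genes, 16 were higher and 2 lower, with a median log2 difference of 3.05 beside -0.05 over all genes. HSP21.9 read 14.00, 14.03 and 13.98 in N22 and 2.29, 2.29 and 2.29 in IR64. It was at least 892-fold higher in N22, and the 3 IR64 values were equal to 2 decimals. Without heat it was at 2.29, 4.16 and 2.29 in N22 and 2.29, 2.29 and 2.29 in IR64, so its heated N22 arrays stood apart from all 9 others. HSP26.7, an sHSP of the chloroplast, read 13.09, 13.18 and 13.17 in N22 and 3.77, 2.54 and 4.20 in IR64, at least 492-fold higher in N22. HSP17.4, a cytosolic class I member, read 13.32, 13.36 and 13.39 in N22 and 6.42, 6.24 and 6.66 in IR64, which is 121-fold without overlap (log2 6.92 ± 0.15, SE, adjusted p = 6.8e-11). HSP16.9A differed by 3.37 ± 0.07, HSP18.1 by 3.29 ± 0.08 and HSP22.3 by 2.81 ± 0.06 (SE). HSP23.2, HSP24.1 and HSP18.6, named after their values were seen, were 193-fold, 21.2-fold and 10.9-fold higher in N22. The lower members were HSP17.9B, at 8.61 in N22 and 10.68 in IR64, and HSP18.8, at 9.45 in N22 and 10.01 in IR64. HSP16.6 and HSP17.8, though called, averaged below background in both cultivars. Several sHSP genes are close paralogs, and a probe set may read more than 1 of them.

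In control 5 of the list were higher and 10 lower in N22 (median -0.66). The difference of the differences was positive for 15 and negative for 2 genes. HSP17.4 averaged 8.36 ± 0.33 in N22 and 9.14 ± 0.08 in IR64 without heat (SD, n = 3 each), so its value was higher in heated than in unheated N22 and lower in heated than in unheated IR64. HSP17.9B, lower in N22 in both conditions, differed by -2.07 in heat and by -7.14 in control. HSP16.9A was higher in N22 in both, by 3.37 in heat and 5.47 in control. The counts of 15 and 2 were the same with arrays centred on their medians and with quantile normalization, and were 14 and 2 with values raised to the background level. Beside these values stands the GAPDH 3′ minus 5′ signal, which was 4.79 in unheated IR64 and between 7.93 and 8.81 in the other groups, and whose part in any difference from control was not tested.

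**Figure D3:**
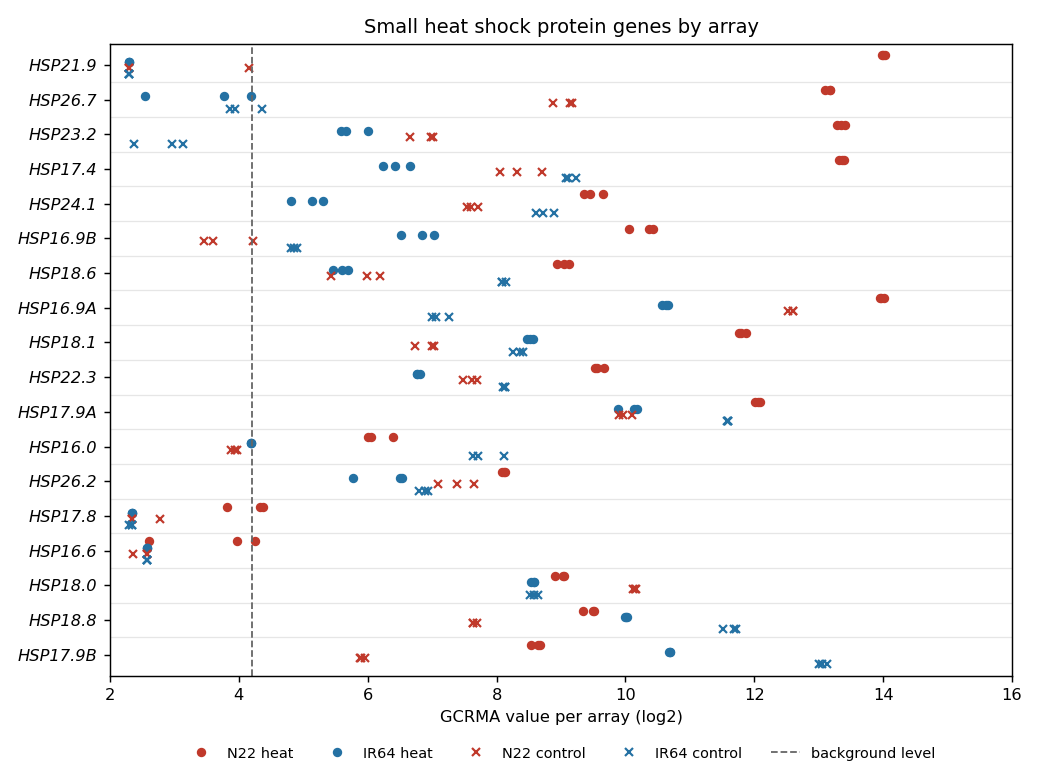
The 18 sHSP genes in order of their N22 minus IR64 difference in heat, with the GCRMA log2 value of each array; dots are heat, crosses open-field control, red N22, blue IR64, and the dashed line the background level. Red dots lie right of blue dots in all rows but the bottom pair, HSP18.8 and HSP17.9B, though in HSP16.6 the lowest red dot nearly touches the blue ones at background.

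The regulators and larger chaperones did not share this direction as a group. Of 19 HSF genes tested, 3 were higher and 8 lower in N22 (median -0.17). HSFB2C read 9.12, 9.21 and 8.95 in N22 and 6.54, 6.28 and 6.07 in IR64, a 6.95-fold difference, and its log2 difference in control was -2.17. HSFB2A was 2.18-fold higher. HSFC1B and HSFA2E were lower, at -1.27 ± 0.08 and -1.16 ± 0.08 on the log2 scale (SE). Among HSFA2 members, named after their values were seen, HSFA2D averaged 8.01 ± 0.19 in N22 and 9.62 ± 0.03 in IR64, and HSFA2C 4.11 ± 0.10 in N22 and 5.89 ± 0.48 in IR64 (SD, n = 3 each). Of 11 HSP90, HSP101 and Clp genes, 5 were higher and 4 lower. CLPB1, the cytosolic HSP101 that pulls proteins out of aggregates, read 8.72, 8.80 and 8.64 in N22 and 5.78, 5.66 and 5.82 in IR64, a 7.82-fold difference with no overlap (adjusted p = 2.4e-10). HSP81-1, a cytosolic HSP90, was 3.01-fold higher and CLPC3 at least 4.94-fold higher, while CLPC2, of the chloroplast, was lower at -0.69.

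Folding genes of the endoplasmic reticulum (ER) leaned towards N22: 22 of 32 tested genes were higher and 5 lower in N22, with a median log2 difference of 0.81. BIP1, the ER HSP70, read 13.96, 13.98 and 13.72 in N22 and 10.24, 10.15 and 10.47 in IR64, which is 12.1-fold. PDIL1-1, the protein disulfide isomerase that folds proglutelin in the endosperm, was 3.65-fold higher. PDIL1-4, 69.7-fold higher, read 11.98, 12.07 and 11.90 in N22 and 5.68, 5.95 and 5.95 in IR64. DJB6, a DnaJ co-chaperone, was 7.63-fold higher. BIP1 differed by 0.95 in control and PDIL1-4 by 6.88, so the difference of the differences was 2.65 ± 0.14 for BIP1 and -0.76 ± 0.15 for PDIL1-4 (SE, adjusted p 1.4e-07 and 0.0014). IRE1, the ER stress sensor, was lower in N22 (-1.14) and BZIP50, the factor it activates by splicing, higher (1.77), both named after their values were seen. In control 16 genes of the list were higher and 11 lower (median 0.15), beside 39.3% higher and 42.1% lower over all genes. The difference of the differences was positive for 22 and negative for 4. The endosperm markers averaged 13.05 to 13.18 in N22 and 3.47 to 3.54 in IR64 in heat. Without heat they averaged 13.35 to 13.45 in N22 and 3.71 to 3.87 in IR64. Their part in this list was not tested.

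Most genes of the cellulose list were higher in N22 in heat. On the cellulose list 9 of 13 tested genes were higher and none lower, with a median log2 difference of 1.62; centring arrays on their medians gave 8 higher and 1 lower. CESA2, one of the genes called higher, lay at background in both cultivars. SUS1, a sucrose synthase that feeds cellulose synthesis, read 9.82, 9.96 and 9.73 in N22 and 5.58, 5.62 and 5.77 in IR64. That is an 18.2-fold difference with no overlap (adjusted p = 2.0e-11). Without heat SUS1 was lower in N22, at 10.05 ± 0.10, than in IR64, at 11.91 ± 0.05 (SD, n = 3 each). SUS1 also counts on the sucrose list. The COBRA-like genes BC1L9 and BC1L6, whose family guides cellulose deposition, were 25.7-fold and 34.0-fold higher. CESA5, a primary wall cellulose synthase, read 10.40, 10.24 and 10.20 in N22 and 7.10, 7.13 and 6.92 in IR64. Among cellulose synthase-like genes 6 of 17 were higher and 3 lower, with CSLF6, which makes mixed-linkage glucan, 19.8-fold higher and CSLC9 11.1-fold higher. The xylan list had 5 higher and 3 lower of 15, and its median of 0.07 turned to a negative value under median centring. Both counts of higher genes lay near the share of 34.0% over all genes. Expansins, which loosen walls during growth, had 16 of 22 genes higher and 3 lower (median 1.07). EXPB3 read 9.44, 9.65 and 9.56 in N22 and 5.49, 5.60 and 6.17 in IR64, a 13.9-fold difference, and EXPB10 5.96, 5.96 and 6.45 in N22 and 2.47, 2.51 and 2.37 in IR64, at least 3.79-fold. EXLA1 was lower in N22, at -2.13.

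CESA4, CESA7 and CESA9, the cellulose synthases of secondary walls, named after their values were seen, were not called in heat. CESA4 read 7.14, 6.99 and 6.98 in N22 and 7.07, 6.84 and 6.84 in IR64 in heat, and without heat 7.17, 7.26 and 7.28 in N22 and 12.71, 12.90 and 12.99 in IR64. Only the 3 unheated IR64 arrays of CESA4 stood apart from the other 9. The difference of the differences was 5.75 ± 0.13 for CESA4, 5.98 ± 0.29 for CESA7 and 5.38 ± 0.14 for CESA9 (SE, adjusted p 6.3e-10, 8.1e-08 and 1.8e-09). With values raised to the background level it was 5.74 for CESA7 and 4.38 for CESA9, since in heat all arrays of CESA9 and all but 1 of CESA7 lay under it. Of the whole cellulose list 12 of 13 genes had a positive difference and none a negative one. The counts became 11 and 1 under median centring, and 11 and 0 with values raised to the background level. Raising the values left no difference for CESA2, which was 0.22 as deposited. The phenylpropanoid and lignin list gave 7 higher and 9 lower of 25 in heat (median -0.14), against 3 higher and 18 lower in control (median -1.35). In heat 6 of the 25 lay at background in both cultivars. The differences of the differences were positive for 18 and negative for 3. Those counts became 16 and 5 under median centring, and 13 and 2 with values raised to the background level. 4CL5, a 4-coumarate:CoA ligase, read 3.57, 3.65 and 4.21 in N22 and 4.14, 4.06 and 3.79 in IR64 in heat, and 3.81, 3.66 and 3.63 in N22 and 11.13, 11.08 and 11.01 in IR64 without it, and unheated IR64 was the one group above background on all arrays. In heat 4CL3 differed by -1.48 ± 0.09 and CAD3 and CAD8C, cinnamyl alcohol dehydrogenases, by -1.70 ± 0.08 and -2.07 ± 0.10 (SE). CAD2, the dehydrogenase of the gold hull mutant, was higher, reading 11.23, 11.28 and 11.28 in N22 and 10.24, 10.38 and 10.07 in IR64.

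**Figure D4:**
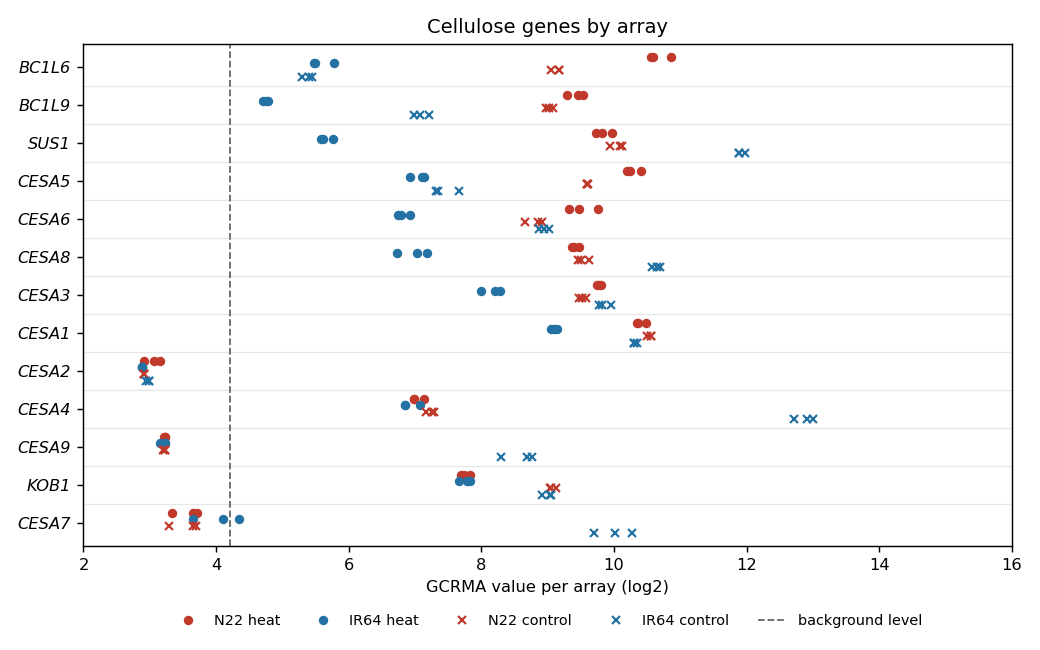
The 13 genes of the cellulose list in order of their N22 minus IR64 difference in heat, with the GCRMA log2 value of each array; dots are heat, crosses open-field control, red N22, blue IR64, and the dashed line the background level. From BC1L6 to CESA1 the red dots lie right of the blue dots, and for CESA4, CESA7 and CESA9 the blue crosses alone lie far to the right.

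Photosynthesis genes were lower in N22 throughout the list. All 27 tested genes were called lower in heat, with a median of -1.15, but CHL9 lay at background in both cultivars there, and 26 were called lower with values raised to the background level. PORA, a protochlorophyllide reductase, read 4.97, 5.33 and 5.70 in N22 and 8.39, 8.38 and 8.53 in IR64, which is 8.57-fold lower with no overlap. CHL1, a subunit of magnesium chelatase, read 7.65, 7.64 and 7.75 in N22 and 9.39, 9.39 and 9.35 in IR64. CHLG, chlorophyll synthase, was 2.92-fold lower. RBCS, the small subunit of Rubisco, named after its values were seen, averaged 13.12 ± 0.03 in N22 and 13.93 ± 0.08 in IR64 (SD, n = 3 each). In control the same 27 genes were lower and the median was -3.45. For 23 of them the difference of the differences was positive and for 1, CHL1, negative. The green tissue markers averaged 13.06 to 13.18 in N22 and 13.78 to 13.91 in IR64 in heat. In control they averaged 10.44 to 10.52 in N22 and 13.81 to 13.85 in IR64. They are themselves photosynthesis genes, so they give no separate reading of green tissue content. The part of that content in this list was not tested. RBCS averaged 10.03 ± 0.11 in unheated N22 and 13.34 ± 0.07 in unheated IR64 (SD, n = 3 each), so of the 4 groups unheated N22 was the low one. Antioxidant enzymes leaned the same way, with 2 of 16 higher and 12 lower in N22 (median -0.58). APX2, a cytosolic ascorbate peroxidase, read 12.30, 12.12 and 12.33 in N22 and 13.43, 13.39 and 13.45 in IR64, GR, glutathione reductase, was 3.21-fold and CAT-A, a catalase, 2.20-fold lower. APX5 was higher, at 7.93, 7.89 and 7.77 in N22 and 4.31, 4.26 and 3.95 in IR64, where 2 of 3 arrays lay above background. Glutathione S-transferases split evenly, 3 higher and 3 lower of 6. GST1 was 3.29-fold higher in N22 in heat and averaged 5.21 in N22 and 9.20 in IR64 in control.

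Most floral and flowering-time regulators tested were lower in N22. Of 26 MADS-box genes tested, 3 were higher and 20 lower in heat (median -1.18). MADS56, a flowering-time gene, read 2.54, 2.54 and 2.57 in N22 and 9.33, 9.21 and 9.05 in IR64, at least 31.9-fold lower in N22, where it was at background with and without heat. MADS1, which specifies the lemma and palea, read 6.79, 6.44 and 6.53 in N22 and 9.75, 9.57 and 9.81 in IR64, an 8.72-fold difference with no overlap. MADS58, a C-class floral gene, was 3.43-fold lower. MADS22 went the other way, reading 10.14, 10.07 and 10.07 in N22 and 6.33, 6.39 and 6.32 in IR64. Clock and flowering-time genes had 2 of 19 higher and 16 lower. PRR73 and PRR37, pseudo-response regulators of the clock, were 5.78-fold and 9.47-fold lower, with PRR37 at 7.40, 7.39 and 7.68 in N22 and 10.79, 10.76 and 10.65 in IR64. LFL1, a repressor of flowering, was at least 4.58-fold higher. The time of day at which panicles were taken is not given in the labels, and its part in the clock list was not tested. In control 19 MADS-box and 16 clock genes were lower.

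HOX and cytokinin genes were more often lower than higher in N22. None of 20 HOX genes was higher and 15 were lower in heat (median -0.65). hox14 read 3.72, 3.72 and 3.74 in N22 and 7.33, 6.99 and 7.45 in IR64 in heat, at least 8.31-fold lower in N22, while unheated it averaged 4.33 ± 0.50 in N22 and 2.83 ± 0.47 in IR64 (SD, n = 3 each). Heated IR64 was thus the only group with hox14 above background on all arrays. Hox22 was at least 2.47-fold and HOX12 5.71-fold lower. Cytokinin genes had 4 of 28 higher and 18 lower (median -1.06). RR9, a type-A response regulator, read 6.78, 6.49 and 6.87 in N22 and 10.66, 10.60 and 10.65 in IR64, which is 15.1-fold lower in N22. HK5, a histidine kinase, RR6 and LOGL3, a cytokinin-activating enzyme, were 3.11-fold, 3.45-fold and 2.70-fold lower. Auxin genes were mixed, 15 higher and 24 lower of 50, with ARF8 4.04-fold and IAA2 5.45-fold lower and ARF14 4.23-fold higher. The ethylene list had 3 in each direction of 10, with the receptor ETR4 at least 2.60-fold higher and the receptor ERS2 4.16-fold lower.

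Phytoalexin, jasmonate and abscisic acid signalling genes were more often lower than higher in N22. No gene of 12 on the diterpenoid phytoalexin list was higher and 7 were lower (median -0.97). CPS2, the ent-copalyl diphosphate synthase of phytocassane synthesis, read 8.96, 8.57 and 9.01 in N22 and 10.95, 10.95 and 10.88 in IR64, which is 4.23-fold lower with no overlap, and in control its difference was -6.47. The cytochromes CYP701A8, CYP71Z6 and CYP71Z7 were 4.21-fold, 4.86-fold and 2.61-fold lower. Jasmonate genes had 8 of 28 higher and 15 lower, and abscisic acid signalling genes 5 of 20 higher and 12 lower. CM-LOX2, a lipoxygenase, read 2.64, 2.29 and 2.82 in N22 and 9.45, 9.28 and 9.54 in IR64, at least 37.3-fold lower. OPR7, an oxophytodienoate reductase of jasmonate synthesis, was 2.32-fold and JAZ8, a jasmonate repressor, 2.66-fold lower. SAPK5, a kinase of abscisic acid signalling, read 7.49, 7.36 and 7.59 in N22 and 10.73, 10.84 and 10.72 in IR64. ABF2, a bZIP factor, was 2.41-fold lower, whereas ABA8OX2, which breaks abscisic acid down, was 2.68-fold higher. Chitinases and other defence proteins had 6 higher and 7 lower of 21. RASI, the bifunctional amylase and subtilisin inhibitor of the seed, was at least 20.4-fold higher, at 8.49, 8.52 and 8.65 in N22 and 2.59, 2.78 and 2.78 in IR64. Cht2, a chitinase, read 8.78, 9.11 and 9.07 in N22 and 13.77, 13.52 and 13.54 in IR64 at its brightest probe set, a 24.7-fold lower value, but the mean of its probe sets gave a difference of the opposite sign. Beta-glucosidases had 7 higher and 10 lower of 21, with BGLU5 32.9-fold and BGLU27 9.99-fold lower. BGLU16 averaged 4.32 ± 0.56 in N22 and 8.91 ± 0.14 in IR64 (SD, n = 3 each), and its N22 arrays lay on both sides of the background level.

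Transport genes for water and ions were likewise lower on balance. Aquaporins had 6 of 23 higher and 15 lower (median -0.95). PIP1-2, of the plasma membrane, was 2.48-fold lower, and Lsi1, the silicon channel, read 7.68, 7.60 and 7.79 in N22 and 10.21, 10.27 and 10.20 in IR64. Potassium and ammonium transporters had 2 higher and 19 lower of 29, with AMT3-2, an ammonium transporter, 6.85-fold lower and HAK18, a potassium transporter, at -2.00 ± 0.06 on the log2 scale (SE). Metal genes had 8 higher and 32 lower of 49 (median -0.68). ZIP3, a zinc transporter, read 2.84, 3.02 and 3.22 in N22 and 7.09, 7.18 and 7.12 in IR64, at least 7.61-fold lower, and MT2B, a metallothionein, read 11.71, 11.62 and 11.90 in N22 and 14.58, 14.63 and 14.59 in IR64. NAS2, a nicotianamine synthase, ran the other way at least 40.9-fold, at 9.49, 9.65 and 9.53 in N22 and 2.29, 2.77 and 3.23 in IR64. NRAMP6 was 18.5-fold higher. Calcium sensors and kinases were close to even, 27 higher and 26 lower of 72, and the median of 0.05 changed sign with the scaling. CPK23 and CPK21, calcium-dependent kinases, were 300.1-fold and at least 50.5-fold higher, and CML29, a calmodulin-like protein, 9.48-fold lower.

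Genes of division and core metabolism leaned towards N22. Cell cycle and replication genes had 35 of 61 higher and 12 lower (median 0.46), and kinesins 16 of 33 higher and 6 lower. CYCB2, a mitotic cyclin, read 7.37, 7.40 and 7.67 in N22 and 4.52, 4.51 and 4.78 in IR64, which is 7.32-fold. MCM2, of the replicative helicase, was 4.58-fold and KIN13B, a kinesin, 12.4-fold higher. CDKG-2 was 2.44-fold higher at its brightest probe set, but the mean of its probe sets was not called. Of 16 proteasome genes 12 were higher and 1 lower, by small amounts (median 0.33), and OsPBB1, a core subunit, led with 1.22 ± 0.07 (SE). Mitochondrial genes had 14 of 22 higher and 4 lower, with the channel VDAC3 2.99-fold higher and AOX1a, the alternative oxidase, 3.82-fold lower. Tapetum and pollen wall genes had 5 of 8 higher and none lower, among them GAMYB at 2.68-fold. Meiosis genes had 4 of 11 higher and 2 lower, with OsSPO11B at 4.09-fold and DMC1 at 3.87-fold. The share of meiosis genes called higher, 36.4%, lay near the 34.0% over all genes. Of the 11 meiosis genes, 3 lay at background in both cultivars. Genes of the small RNA pathway ran down, 1 higher and 10 lower of 16 (median -0.62). DCL2A, a Dicer-like nuclease, read 7.56, 7.47 and 7.76 in N22 and 12.32, 12.37 and 12.38 in IR64, a 27.0-fold lower value with no overlap, with a log2 difference in control of -3.95. AGO1B, an Argonaute, was 4.82-fold lower in heat, with 0.42 in control. For 12 genes of this list the difference of the differences was negative and for 1 positive.

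Small families of stress regulators gave few calls. DREB2D, alone of 4 tested DREB genes, was higher, at least 1.62-fold, and none lower. Of 7 NAC genes none was higher and 3, NAC4, NAC5 and NAC6, were lower at -0.70, -0.87 and -0.49 on the log2 scale. WRKY genes had 1 higher, WRKY9 at 3.98-fold with 2 of 3 IR64 arrays above background, and 3 lower of 6, of which WRKY62 lay at background in both cultivars.

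**Figure D5:**
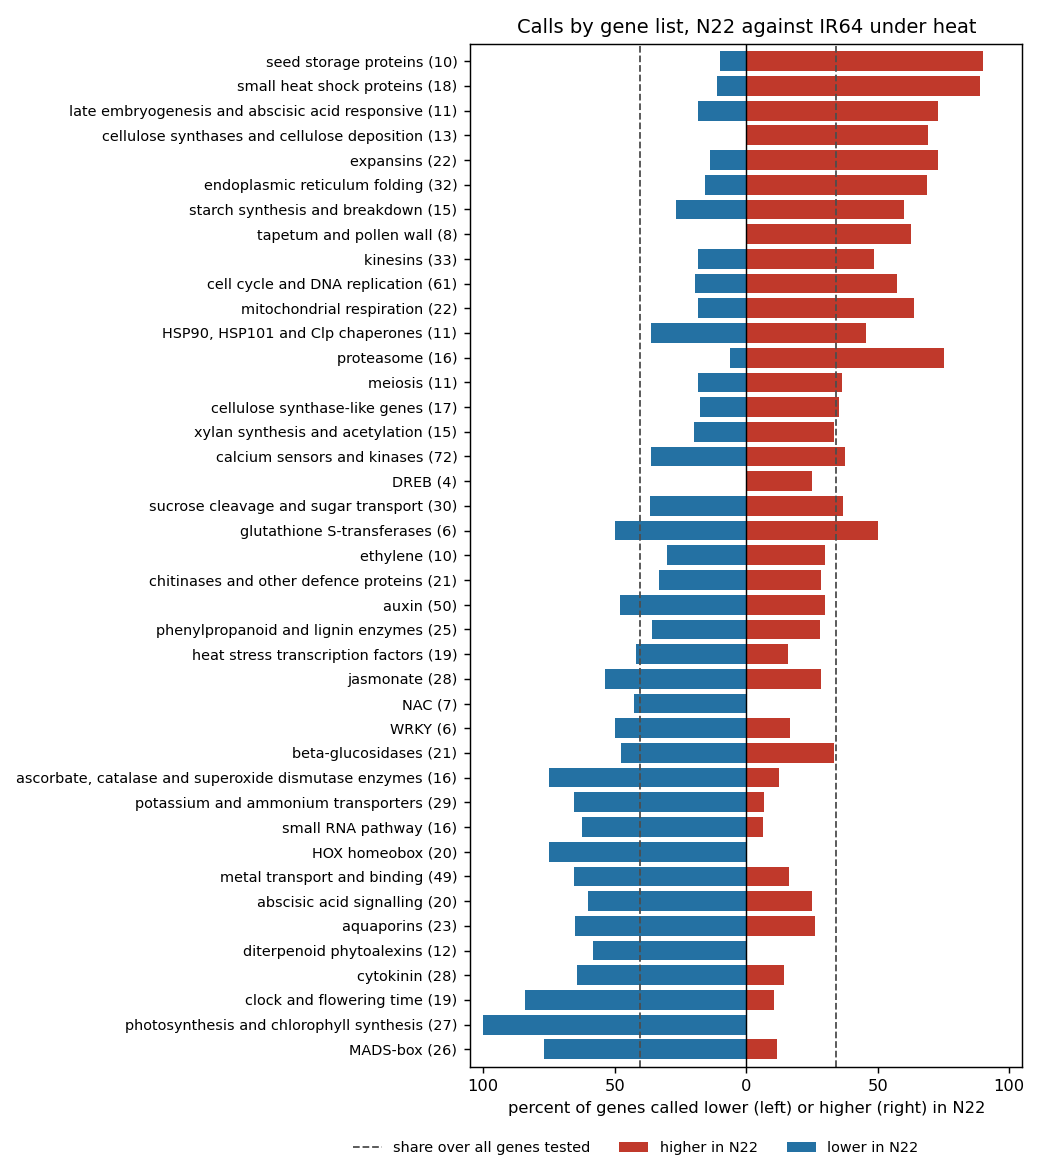
For each gene list, with its number of tested genes in parentheses, red bars to the right give the percent of genes called higher in N22 in heat and blue bars to the left the percent called lower, lists ordered by their median log2 difference. Dashed lines mark the shares over all tested genes, 34.0% higher and 40.4% lower; seed storage and sHSP lists reach furthest right, and the photosynthesis list fills the left side.

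Several of the largest falls in N22 were of genes at background there. H2B.10, a histone H2B gene, read 2.45, 2.30 and 2.30 in N22 and 10.02, 9.69 and 10.06 in IR64, at least 52.8-fold lower in N22. PDX12, of the vitamin B6 pathway, was at least 16.5-fold and OsPP2C16, a protein phosphatase, at least 8.75-fold lower, and pinA, above background in both, 81.4-fold lower. Genes without a descriptive name went further. LOC4328727 read 2.45, 2.55 and 2.60 in N22 and 14.59, 14.74 and 14.62 in IR64, at least 1393-fold lower, and LOC4327118 read 2.54, 3.14 and 2.81 in N22 and 13.82, 13.85 and 13.83 in IR64, at least 793-fold lower. LOC4342354 was at least 239-fold and LOC4340120 at least 171-fold lower. In all 4 the N22 arrays lay below and the IR64 arrays far above background. Unheated panicles repeated it, with log2 differences of -12.30, -11.40, -8.99 and -5.16, and only for LOC4340120 was the heat difference more than 1 log2 unit larger. Among probe sets higher in N22, LOC9270227 read 15.55, 15.58 and 15.58 in N22 and 2.33, 2.61 and 2.33 in IR64, at least 2639-fold higher, and LOC4329275 15.19, 15.20 and 15.18 in N22 and 2.29, 2.48 and 2.29 in IR64, at least 2031-fold higher.

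Counted over all tested probe sets, 611 exceeded a log2 value of 6.20 on all 3 heated N22 arrays and lay at background on all 3 heated IR64 arrays, and 232 did the reverse. The threshold was chosen after the data were seen. Of the N22-bright kind 70.9%, and of the IR64-bright kind 66.4%, showed the same state in open-field panicles. An array value cannot tell less RNA from RNA whose sequence differs under the probes. Among genes read by at least 2 tested probe sets, of 2322 such genes, 898 had every probe set called in the same direction, 926 had some called and none opposed, 277 had none called, and 221 (9.52%) had probe sets called in opposite directions. In gene order on the ASM3414082v1 assembly, LOC4342354 lies 2 steps from LOC4342352, also bright in IR64 and at background in N22. Other such close pairs were found among genes of each kind, drawn from 352 genes bright in N22 and 116 bright in IR64. RA14, whose probe set can match family members, was in such a pair. How many pairs to expect was not computed.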

How the data were processed

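Per the labels, total RNA was extracted with a commercial kit, labelled with biotin and hybridised to 1-colour Affymetrix rice arrays. The deposited values are log2 values made with GCRMA, per the submitters' processing notes; the sources used here give no version of it. GCRMA subtracts background by probe sequence, so low probe sets pile up at a floor. Control and reporter probe sets were left out, and probe sets above the table's median of 2.35 on at least 3 of 12 arrays were kept (29801 of 57194). limma 3.58.1 in R 4.3.3 fitted 4 group means to all 12 arrays, followed by eBayes and Benjamini-Hochberg adjustment, at 0.05, two-sided. A fold of at least N is the bright group's mean over the background level, used where all 3 arrays of the other group lay at or under it. Probe sets were named through the platform annotation and RefSeq gene names (ASM3414082v1): 22436 paired with 1 gene, 95 with several and 34663 with none, and a gene was read at its brightest probe set. On simulated data the test recovered 173 of 200 changed probe sets (2-fold) among 29801, with 14 false calls. The simulation used independent normal noise without the GCRMA floor and changed far fewer probe sets than were called here. Its counts therefore do not give the test's error rates on these arrays. Arrays were grouped by their titles. Named are the 12 largest rises and falls among genes with a descriptive name, 4 genes per list by adjusted p, the 6 most positive and negative differences of the differences, and the 4 largest rises and falls whatever the name. Other genes (CESA1, CESA2, the lower members of the starch, sHSP and late embryogenesis lists, HSP16.6, HSP17.8, RA17, GLB, and those said so in the text) were chosen after their values were seen. Members and lists were chosen with earlier results of these data known. The alternatives changed array scaling, the filter, the floor, the arrays fitted, the variance model, the block, the probe set read and each array left out. No sequences are shown.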

Additional observations from a re-analysis of the deposited data

Results flagged for a closer look

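For 12 genes the cultivar difference in heat differed from the cultivar difference in control by limma's test of the difference itself, and they are the 6 most positive and the 6 most negative among genes with a descriptive name. All values are log2 means ± SD (n = 3 each), and no explanation was tested. In most of them at least 1 group lay under the background level, where the fitted difference is neither a measured size nor a bound, so it is followed by the value with all arrays raised to that level. HSP21.9, a small heat shock protein gene, had a difference of the differences of 11.09, or 9.80 raised, with 14.00 ± 0.03 in N22 and 2.29 ± 0.00 in IR64 in heat, and 2.92 ± 1.08 in N22 and 2.29 ± 0.00 in IR64 without heat. HSP17.4, above background in all groups, had 7.70 and was given above with its values. The expansins EXPB10 and EXPB9 had 7.88, or 4.34 raised, and 7.76, the same raised. EXPB9 averaged 7.29 ± 0.27 in N22 and 5.24 ± 0.35 in IR64 in heat, and 4.86 ± 0.29 in N22 and 10.58 ± 0.11 in IR64 without heat, so its direction between the cultivars was opposite in the open field. EXPB10 averaged 6.13 ± 0.28 in N22 and 2.45 ± 0.07 in IR64 in heat, and 2.42 ± 0.11 in N22 and 6.62 ± 0.25 in IR64 without heat. 4CL5 had 7.18, or 6.87 raised, and unheated IR64 was the one group in which it lay above background on all arrays. NifU1, an iron-sulfur cluster scaffold gene, had 6.96, or 4.04 raised, averaging 4.54 ± 0.43 in N22 and 2.51 ± 0.25 in IR64 in heat, and 2.94 ± 0.10 in N22 and 7.86 ± 0.13 in IR64 without heat.

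On the negative side, hox14 had -5.03, or -3.33 raised. SWEET14, a sugar transporter gene, had -3.66, or -3.13 raised, averaging 9.22 ± 0.20 in N22 and 7.77 ± 0.13 in IR64 in heat, and 8.99 ± 0.13 in N22 and 3.87 ± 0.81 in IR64 without heat. AGO14 had -3.63, or -2.61 raised, averaging 5.69 ± 0.10 in N22 and 5.71 ± 0.13 in IR64 in heat, and 6.79 ± 0.16 in N22 and 3.19 ± 0.11 in IR64 without heat. RAB21 had -3.23, or -3.21 raised, averaging 7.52 ± 0.10 in N22 and 5.98 ± 0.27 in IR64 in heat, and 9.25 ± 0.11 in N22 and 4.48 ± 0.31 in IR64 without heat. OC-VI, a cystatin gene, had -3.21, or -1.54 raised, averaging 2.40 ± 0.10 in N22 and 2.43 ± 0.05 in IR64 in heat, and 5.74 ± 0.35 in N22 and 2.56 ± 0.05 in IR64 without heat. CSLA9, a cellulose synthase-like gene, had -3.17, the same raised, averaging 7.35 ± 0.05 in N22 and 7.48 ± 0.09 in IR64 in heat, and 9.46 ± 0.09 in N22 and 6.42 ± 0.07 in IR64 without heat. Subtracting array medians shifts each of them by -0.30. Beside them, the GAPDH 3′ minus 5′ signal of unheated IR64, at 4.79, stood apart from the other 3 groups, and its part was not tested.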

How the results depend on the processing

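Of 3956 values recomputed under the alternatives for 189 results of named genes, 3953 kept direction and side of the threshold. The exceptions were CDKG-2, at -0.12 (limma adjusted p = 0.082), and Cht2, at 0.55 (limma adjusted p = 0.0024), both with a gene's probe sets averaged instead of taking the brightest, and WRKY62, no longer called with values raised to the background level. Cht2 and CDKG-2 thus rest on which probe set is read. Most named genes were chosen for large differences or small adjusted p on these same arrays. That choice favoured kept calls, so their number does not measure how stable other genes are. Leaving out an open-field array also leaves the group means in heat as they were. Counts in heat stayed within 1.5 times of 8820 higher and 9975 lower probe sets under every alternative run. Median centring raised the negative differences of the differences to 13813, against 7764 as deposited, and by construction shifts all values of an array alike. Quantile normalization gave a share of positive calls of 43.8%. Leaving out each array in turn gave 8370 to 8857 higher and 9258 to 9919 lower probe sets in heat, 4591 to 4706 and 4357 to 4777 at least 2-fold, 8365 to 8602 positive and 7263 to 7812 negative differences of the differences, and a GAPDH 3′ minus 5′ difference of 0.79 to 0.96. With the replicate number as a block, 8759 probe sets were higher and 9834 lower in heat, 4678 and 4604 at least 2-fold, with 8655 positive and 7623 negative differences of the differences, and no named gene changed its call. Same-numbered arrays correlated at -0.05 to 0.10 in their deviations from group means. With 3 arrays a group, such values cannot tell whether same-numbered samples share more than a number. Signal over background limits what low values can show, and 3 arrays a group limit the precision.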
